A study of Mus musculus with 16 samples.

Results

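The activating arm of the circadian clock and its PAR bZIP outputs are represented here by 8 genes: Arntl (also called Bmal1), Clock, Npas2, Rora, Dbp, Tef, Hlf and Nfil3. They were chosen by name and function, with their FPKM values in all 16 libraries, the group difference and their correlations within each group already known, and all 8 are among the 25791 gene symbols of the deposited table. The data are expression values (FPKM, fragments mapped to a transcript, scaled to its length and to library depth) of isolated glomeruli from 16 mice. RAAS-blocked mice (n = 7) drank water containing 20 mg/day lisinopril, which inhibits the enzyme that makes angiotensin II, together with 30 mg/day losartan, which blocks its receptor. This blockade of the renin-angiotensin-aldosterone system (RAAS) started when the mice were 10 to 12 weeks old and lasted until 26 weeks. The other 9 mice were untreated, and their age at the end was likewise 26 weeks. All 16 carried the genotype eNOS-/-//db/db, on a standard diet: they had no endothelial nitric oxide synthase and, through the db allele, no working leptin receptor signal, a state that brings obesity and diabetes. Both alleles are carried in every tissue, and mice without them were not analysed here, so the values describe blockade within this diabetic model. Glomeruli came from a single kidney per mouse, by perfusion with iron and magnetic separation. The sources used here do not give the hour of collection.

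The circadian clock is a feedback loop of transcription that runs in most cells. The proteins of Arntl and Clock, or of Arntl and Npas2, pair and bind E-boxes, and so switch on the Per, Cry and Nr1d genes as well as Dbp. The Per and Cry proteins then block that pair, while the Nr1d repressors and the activator encoded by Rora compete for response elements called ROREs, among them those of Arntl. Dbp, Tef and Hlf encode the PAR bZIP proteins, named for a region rich in proline and acidic residues, which activate genes through D-boxes, and Nfil3 encodes a repressor of the same D-boxes. In mouse tissues Arntl and Npas2 peak at about the opposite time of day from Dbp, Tef and Hlf, and in the kidney the clock is known for daily rhythms of sodium transport and urine output.

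Matches to the DNA elements of the loop were looked for in the promoter windows of RefSeq (GRCm38.p6), which run from 250 bases before to 50 bases after each gene start. All 8 genes had at least 1 window, 12 in all, and of the 10 clock repressors used for comparison 8 had one (Per2 and Bhlhe40 did not). The windows were searched on both strands for an E-box (CACGTG), a D-box (TTANGTAA) and a RORE (ANTNGGTCA). The length of the RORE was settled after its matches were seen: with 1 more A in front it matched Arntl and not Nfil3. In the stretches below, capitals mark the match, all are written 5′ to 3′ on the strand of the gene, and positions are counted from the gene start as 1, with -1 just before it. The Arntl and Nfil3 stretches are shown because both hold the RORE letters AGTAGGTCA, on opposite strands. The Tef stretches hold the E-box of each of its 2 windows, the Per3 stretch holds a pair of D-boxes, and the Gm129 (Ciart) stretch holds 3 E-boxes.
Arntl, chr7:113207528-113207557, plus strand, bases 18 to 47: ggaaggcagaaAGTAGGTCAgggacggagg
Nfil3, chr13:52981040-52981099, minus strand, bases -60 to -1: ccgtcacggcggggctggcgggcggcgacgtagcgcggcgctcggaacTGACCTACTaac
Tef window 1, chr15:81802513-81802572, plus strand, bases -160 to -101: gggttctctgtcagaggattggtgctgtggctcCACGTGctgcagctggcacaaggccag
Tef window 2, chr15:81811254-81811313, plus strand, bases -160 to -101: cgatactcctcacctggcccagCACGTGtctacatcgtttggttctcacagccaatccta
Per3, chr4:151044806-151044880, minus strand, bases -215 to -141: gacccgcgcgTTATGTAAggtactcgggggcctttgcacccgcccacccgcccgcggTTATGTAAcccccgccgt
Gm129, chr3:95882259-95882353, minus strand, bases -125 to -31: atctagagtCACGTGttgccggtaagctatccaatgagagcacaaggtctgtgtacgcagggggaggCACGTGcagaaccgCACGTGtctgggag

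Among the 8 genes the RORE letters were found in 2 (Arntl and Nfil3), the E-box in 1 (Tef) and the D-box in 0. Among the 8 repressors with a window the E-box was found in 4, the D-box in 1 and the RORE in 0. Of all 32851 promoter windows 2.24% held the RORE, 7.15% the E-box and 2.32% the D-box, and 0.606% held the longer RORE. A match is a description of the letters in these windows and was not tested as a binding site, and Dbp, Hlf, Clock, Npas2 and Rora had no match within them.

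Few facts of the series bear on these genes. The podocyte gene Nphs1, which encodes nephrin, was at 181 to 470.1 FPKM in RAAS-blocked and at 189 to 433 FPKM in untreated libraries, and Podxl was listed at 0 throughout. Proximal tubule RNA varied widely, the summed level of 12 markers running from 38.6 to 762 FPKM in RAAS-blocked and from 43.7 to 996 FPKM in untreated libraries. RAAS-blocked replicate 4 had 16919 symbols above 0, the fewest, against up to 18613 elsewhere. In whole tissue RNA, fewer cells of a type and less RNA per cell cannot be told apart. The library identifiers form 1 unbroken run per group, so handling that followed those runs and treatment cannot be told apart.

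Per length of transcript, Tef was the most abundant of the 8 genes, with a mean of 65.0 FPKM over 16 libraries, followed by Dbp at 47.4 FPKM. Clock averaged 15.1 FPKM, Rora 10.0 FPKM and Hlf 8.26 FPKM, and then came Nfil3 at 3.18 FPKM, Arntl at 2.65 FPKM and Npas2 at 0.339 FPKM. Tef exceeded Dbp in 7 of 7 RAAS-blocked and 8 of 9 untreated libraries, although their ranges overlapped in both groups. Dbp stood clear of Clock in all libraries of both groups, with no overlap. Nfil3 and Arntl were not separated, with Nfil3 the higher in 5 of 7 RAAS-blocked and 5 of 9 untreated libraries, and Rora and Hlf likewise overlapped.

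**Figure D1:**
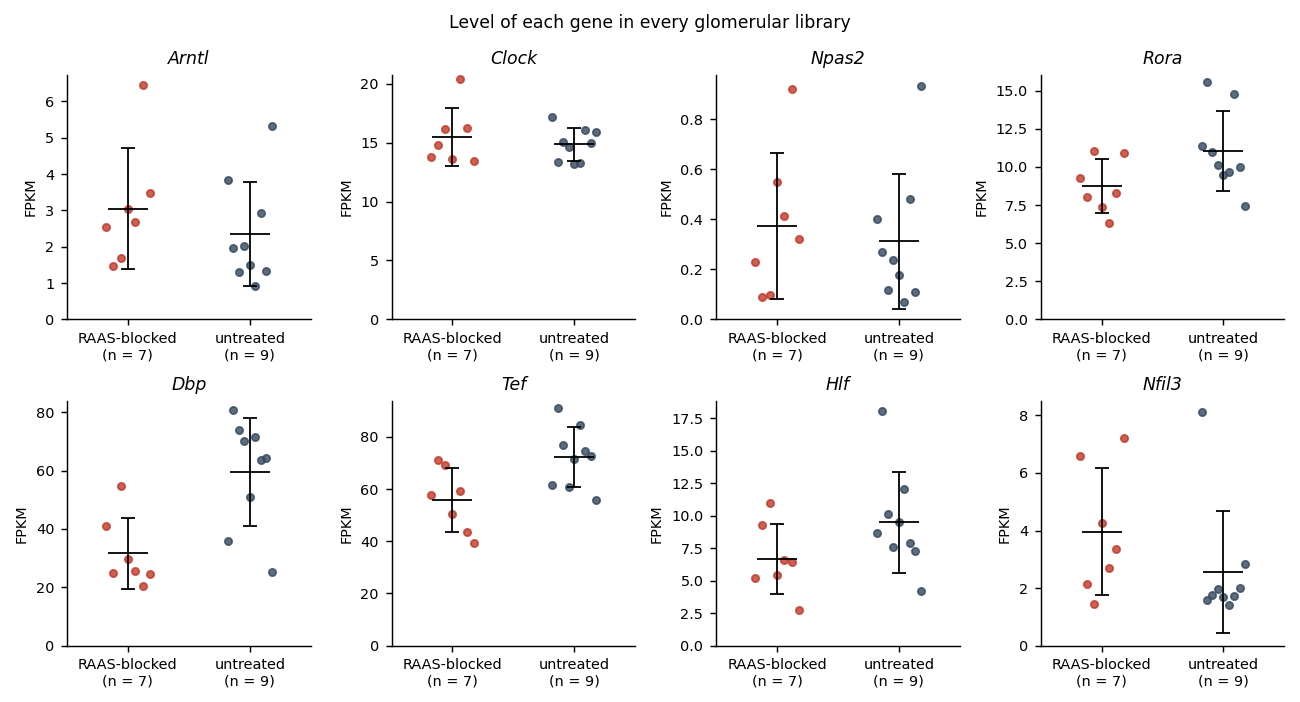
Expression of the 8 genes in FPKM (y axes, from 0) in 7 RAAS-blocked (red) and 9 untreated (dark) glomerular libraries; each point is a library, and the bar with whiskers is the mean ± SD. Dbp had 7 of 7 RAAS-blocked libraries below the untreated median of 64.4 FPKM, while Clock stayed between 13.2 and 20.4 FPKM in all 16.

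Arntl, the partner shared by both activating pairs named above, was low and variable. It ran from 1.47 FPKM (replicate 1) through a median of 2.69 to 6.46 FPKM (replicate 5) in RAAS-blocked libraries, and from 0.906 FPKM (replicate 5) through 1.95 to 5.33 FPKM (replicate 8) in untreated libraries. The groups overlapped over most of their range, and 5 of 7 RAAS-blocked libraries lay above the untreated median. The means were 3.05 ± 1.66 FPKM (SD, n = 7) in RAAS-blocked and 2.35 ± 1.44 FPKM (SD, n = 9) in untreated libraries. On the log2(FPKM + 1) scale the difference, RAAS-blocked minus untreated, was 0.29 ± 0.26 (SE), and 0.13 without RAAS-blocked replicate 5.

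Clock, whose protein pairs with that of Arntl, was the steadiest of the 8. Its values were 13.4, 14.8 and 20.4 FPKM (lowest, median and highest) in RAAS-blocked and 13.2, 15.0 and 17.2 FPKM in untreated libraries. The highest RAAS-blocked value, that of replicate 4, stood apart from the next at 16.2 FPKM. Within a group the highest Clock value was 1.52 (RAAS-blocked) and 1.30 (untreated) times the lowest, against 5.88 times for Arntl in untreated libraries. The log2 difference was 0.05 ± 0.08 (SE) and became -0.02 when RAAS-blocked replicate 4 was left out.

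Npas2, which can take the place of Clock, was below 1 FPKM in all 16 libraries and so did not pass the filter for testing (at least 1 FPKM in at least 7 libraries). It was at 0.0912, 0.321 and 0.920 FPKM (lowest, median and highest) in RAAS-blocked and at 0.0700, 0.239 and 0.934 FPKM in untreated libraries. The lowest and the highest Npas2 library of each group were the same as for Arntl, namely replicates 1 and 5 of the RAAS-blocked and replicates 5 and 8 of the untreated group.

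Rora, the nuclear receptor that activates through ROREs, was at 6.32, 8.29 and 11.0 FPKM (lowest, median and highest) in RAAS-blocked and at 7.45, 10.1 and 15.6 FPKM in untreated libraries. The groups overlapped, with 2 RAAS-blocked libraries below and 3 untreated libraries above all of the other group. The log2 difference was -0.30 ± 0.14 (SE).

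The PAR bZIP activators had lower means in RAAS-blocked glomeruli, most of all Dbp. Dbp was at 20.6, 25.6 and 54.9 FPKM (lowest, median and highest) in RAAS-blocked and at 25.4, 64.4 and 80.9 FPKM in untreated libraries. All 7 RAAS-blocked libraries lay below the untreated median and 6 of 9 untreated libraries lay above every RAAS-blocked one, while untreated replicates 8 (25.4 FPKM), 0 (35.9 FPKM) and 4 (50.8 FPKM) lay within the RAAS-blocked range. Mean Dbp was 31.6 ± 12.1 FPKM (SD, n = 7) in RAAS-blocked and 59.6 ± 18.6 FPKM (SD, n = 9) in untreated libraries, a ratio of 0.530, and the log2 difference was -0.89 ± 0.24 (SE).

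Tef was at 39.5, 57.7 and 71.0 FPKM (lowest, median and highest) in RAAS-blocked and at 55.9, 72.6 and 91.2 FPKM in untreated libraries. All 7 RAAS-blocked libraries were below the untreated median, and 8 of 9 untreated libraries were above the RAAS-blocked median. Its log2 difference was -0.38 ± 0.13 (SE), with means of 55.8 ± 12.1 FPKM (SD, n = 7) in RAAS-blocked and 72.2 ± 11.4 FPKM (SD, n = 9) in untreated libraries.

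Hlf, the least abundant of the PAR bZIP activators, was at 2.77, 6.47 and 11.0 FPKM (lowest, median and highest) in RAAS-blocked and at 4.23, 8.69 and 18.1 FPKM in untreated libraries. The ranges overlapped broadly, and the log2 difference was -0.45 ± 0.25 (SE), or -0.29 without RAAS-blocked replicate 6.

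Nfil3, the D-box repressor, leaned the other way. It was at 1.45, 3.37 and 7.21 FPKM (lowest, median and highest) in RAAS-blocked and at 1.42, 1.76 and 8.12 FPKM in untreated libraries. In 6 of 7 RAAS-blocked libraries it lay above the untreated median, and 8 of 9 untreated libraries lay below the RAAS-blocked median. The exception, untreated replicate 0, had the highest value of all 16. The log2 difference was 0.49 ± 0.29 (SE), and 0.68 without untreated replicate 0.

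None of these differences passed the test over all genes. In the limma fit 0 of 7 tested members had an adjusted p under 0.05, where 0.0151% of all 13286 genes tested did. At an unadjusted p under 0.05 there were 3 (Dbp, Tef and Rora, all lower in RAAS-blocked glomeruli), beside 6.13% of all genes, and 2 members reached that level by gene-wise exact Wilcoxon tests, which gave 0 members and 0 genes after adjustment and 757 genes before it. The lowest limma adjusted p was 0.506 (Dbp), followed by 0.680 (Tef). Because the genes were chosen with this contrast known, these counts are a description. The median log2 difference of the 7 was -0.30, beside -0.02 over all genes tested, and 4 of 7 had lower means in RAAS-blocked libraries, beside 55.3% of all genes.

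**Figure D2:**
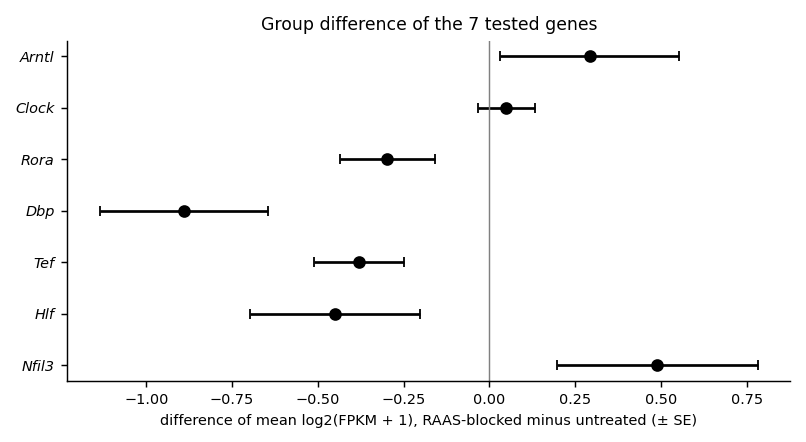
Difference of mean log2(FPKM + 1), RAAS-blocked minus untreated (x axis), for the 7 genes that passed the filter on low values; points are differences and whiskers ± SE. Dbp lay at -0.89, Tef, Hlf and Rora between -0.45 and -0.30, Clock at 0.05, and Arntl and Nfil3 at 0.29 and 0.49.

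Some cell type markers also differed in group mean, but 0 of any list passed the adjusted threshold over all genes. The mean of each of 6 markers of smooth muscle and pericytes was higher in RAAS-blocked libraries, with a summed level of 327 to 524 FPKM in RAAS-blocked and 95.9 to 464 FPKM in untreated libraries and none of the 6 below the filter. The 5 of 6 fibroblast markers that passed the filter (48.1 to 86.3 FPKM in RAAS-blocked and 23.4 to 70.4 FPKM in untreated libraries) likewise all had higher means. The 7 mesangial and juxtaglomerular ones include Ren1, the renin gene of the blocked system, and the renin-cell gene Akr1b7. They too all had higher means (869 to 2455 FPKM in RAAS-blocked and 332 to 1408 FPKM in untreated libraries). So did the 5 of 10 macrophage and lymphocyte markers that passed the filter (173 to 638 FPKM in RAAS-blocked and 102 to 1116 FPKM in untreated libraries). Lower means in RAAS-blocked libraries were found for 8 of 9 tested podocyte markers (1679 to 5470.1 FPKM in RAAS-blocked and 2144 to 5199 FPKM in untreated libraries). They were also found for 8 of 10 endothelial ones (1635 to 3277 FPKM in RAAS-blocked and 2047 to 4253 FPKM in untreated libraries), beside 55.3% of all genes tested. Lower means were found too for 8 of 12 proximal tubule markers (median log2 difference -0.01), 2 of 4 thick ascending limb and 6 of 9 distal tubule and collecting duct ones. At an unadjusted limma p under 0.05 there were 0 podocyte, 0 macrophage and lymphocyte and 1 endothelial markers. There were 2 mesangial and juxtaglomerular, 3 smooth muscle and 3 fibroblast ones. With the smooth muscle level as a covariate, a fit added after the data were seen, the log2 difference of Dbp was -0.65 ± 0.27 (SE), that of Tef -0.26 ± 0.15, that of Rora -0.12 ± 0.14 and that of Hlf -0.14 ± 0.25. In the same fit it was 0.19 ± 0.31 (SE) for Arntl, 0.31 ± 0.34 for Nfil3 and 0.04 ± 0.10 for Clock. The smooth muscle level itself was higher in RAAS-blocked libraries, so this fit cannot tell these cells and treatment apart. The part of these cells in the differences was not tested. With the proximal tubule level as a covariate the log2 difference was -0.89 ± 0.23 for Dbp, -0.38 ± 0.11 for Tef and -0.45 ± 0.17 for Hlf.

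Correlations between the 8 genes within each group were among the values that the choice of genes rests on, so they are given without a test, over 7 RAAS-blocked and 9 untreated libraries that also differ in tissue makeup. Of 28 pairs, 9 had a positive and 13 a negative Pearson r in both groups, and 6 differed in sign. A size of at least 0.5 was reached by 11 pairs in RAAS-blocked and by 22 in untreated libraries, and by 8 pairs in both with the same sign.

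Among the activators, Arntl and Npas2 were the tightest pair, with an r of 0.93 (Spearman rho 0.89) in RAAS-blocked and 0.96 (rho 0.95) in untreated libraries. Without the 2 libraries farthest from the Npas2 median, r was 0.74 and 0.97. Arntl with Clock had an r of 0.02 in RAAS-blocked and 0.73 in untreated libraries. Without the 2 libraries farthest from the Clock median it was -0.83 in RAAS-blocked and 0.65 in untreated libraries. Arntl with Rora had an r of -0.11 in each group.

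Arntl had a negative r with Dbp, Tef and Hlf in both groups. With Hlf it was -0.50 in RAAS-blocked and -0.59 in untreated libraries. With Tef its r was -0.85 (rho -0.93) in RAAS-blocked and -0.69 (rho -0.67) in untreated libraries, and -0.96 and -0.69 without the 2 libraries farthest from the Tef median. With Dbp it was -0.58 in RAAS-blocked and -0.81 in untreated libraries, but the untreated value rests on replicates 8 and 0, since it was -0.03 without them. The ratio of Dbp to Arntl gives the spread of single libraries. It ran from 3.18 (replicate 5) through a median of 9.85 to 32.4 (replicate 2) in RAAS-blocked and from 4.76 (replicate 8) through 34.7 to 79.0 (replicate 5) in untreated libraries. The untreated replicates 8, at 4.76, and 0, at 9.37, fell below the RAAS-blocked median, so the groups overlapped in this ratio.

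The 3 pairs among the PAR bZIP activators had a positive r in both groups. Tef with Hlf had an r of 0.84 in RAAS-blocked and 0.87 in untreated libraries, Dbp with Tef 0.55 and 0.77, and Dbp with Hlf 0.40 and 0.71. Without the 2 libraries farthest from the median of the second gene, the r of Tef with Hlf was the one of these 3 to stay above 0.5 in both groups, at 0.595 in RAAS-blocked and 0.64 in untreated libraries. Without RAAS-blocked replicate 2 the r of Dbp with Hlf was -0.12 in that group.

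Nfil3 had a negative r with Dbp, Tef and Hlf in both groups, of uneven size. With Dbp it was -0.24 in RAAS-blocked and -0.66 in untreated libraries, and 0.80 and -0.21 without the 2 libraries farthest from the Nfil3 median, so the sign turned in RAAS-blocked libraries. With Hlf its r was -0.93 (rho -1) in RAAS-blocked and -0.30 (rho -0.75) in untreated libraries. The untreated value was set by replicate 0, without which it was -0.86. With Tef it was -0.71 (rho -0.82) in RAAS-blocked and -0.59 (rho -0.77) in untreated libraries, and -0.35 and -0.78 without the 2 farthest. The ratio of Hlf to Nfil3 ran from 0.384 (replicate 6) through a median of 1.92 to 7.57 (replicate 2) in RAAS-blocked and from 1.07 (replicate 0) through 4.54 to 11.4 (replicate 1) in untreated libraries.

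**Figure D3:**
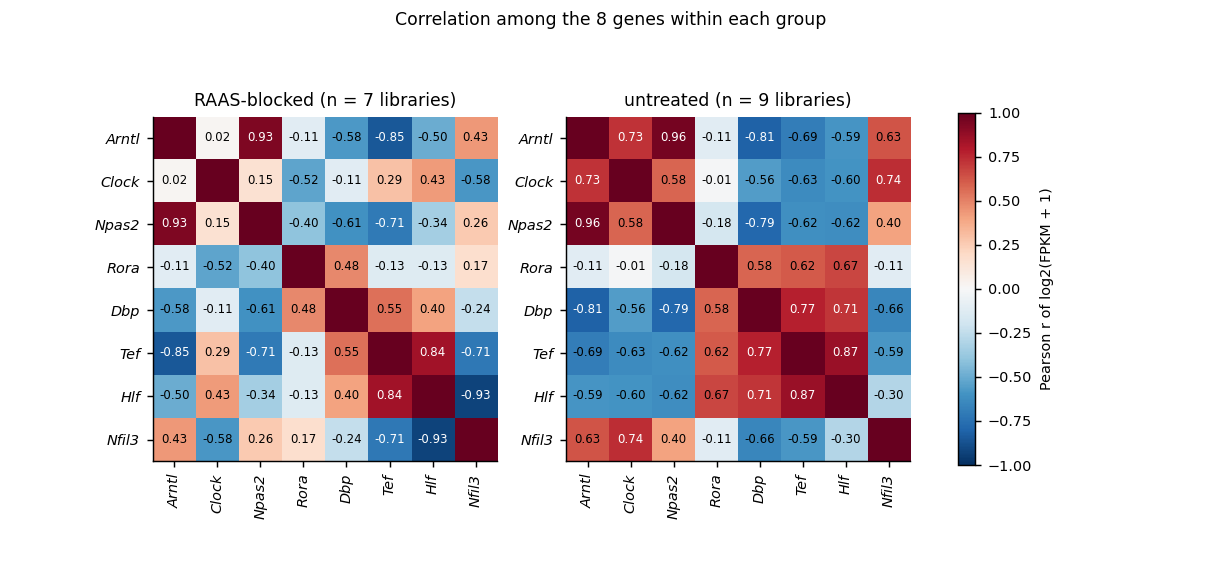
Pearson r of log2(FPKM + 1) between each pair of the 8 genes, across 7 RAAS-blocked (left) and 9 untreated (right) libraries; red is positive and blue negative. Arntl and Npas2 (0.93 and 0.96) and Tef and Hlf (0.84 and 0.87) form positive blocks in both groups, and Arntl with Tef is negative in both (-0.85 and -0.69).

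Single libraries held the extremes of several genes at once. Untreated replicate 8 had the highest Arntl (5.33 FPKM) and Npas2 (0.934 FPKM) of its group together with the lowest Dbp (25.4 FPKM), Tef (55.9 FPKM), Hlf (4.23 FPKM) and Rora (7.45 FPKM). RAAS-blocked replicate 5 combined the highest Arntl (6.46 FPKM) and Npas2 (0.920 FPKM) of its group with the lowest Dbp (20.6 FPKM). Untreated replicate 1 had the highest Dbp (80.9 FPKM), Tef (91.2 FPKM), Hlf (18.1 FPKM) and Rora (15.6 FPKM) of its group, and its Arntl, at 1.95 FPKM, was the group median. RAAS-blocked replicate 6 had the highest Nfil3 (7.21 FPKM) of its group with the lowest Tef (39.5 FPKM) and Hlf (2.77 FPKM). Each of these libraries was also the highest or lowest of its group on a marker list, but so were most libraries on some list. The mean log2 level of the smooth muscle markers was 3.18 in untreated replicate 1, the lowest of its group, and 5.15 in untreated replicate 8, the highest. That of the proximal tubule markers was 1.37 in RAAS-blocked replicate 6, the lowest of its group, and 5.13 in RAAS-blocked replicate 5, the highest. None of these libraries was an extreme of both lists. RAAS-blocked replicate 5 was at its group's smooth muscle median (5.01), and untreated replicate 8 was at 1.84 for proximal tubule, above replicate 0 at 1.58. The part of makeup in these extremes was not tested.

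**Figure D4:**
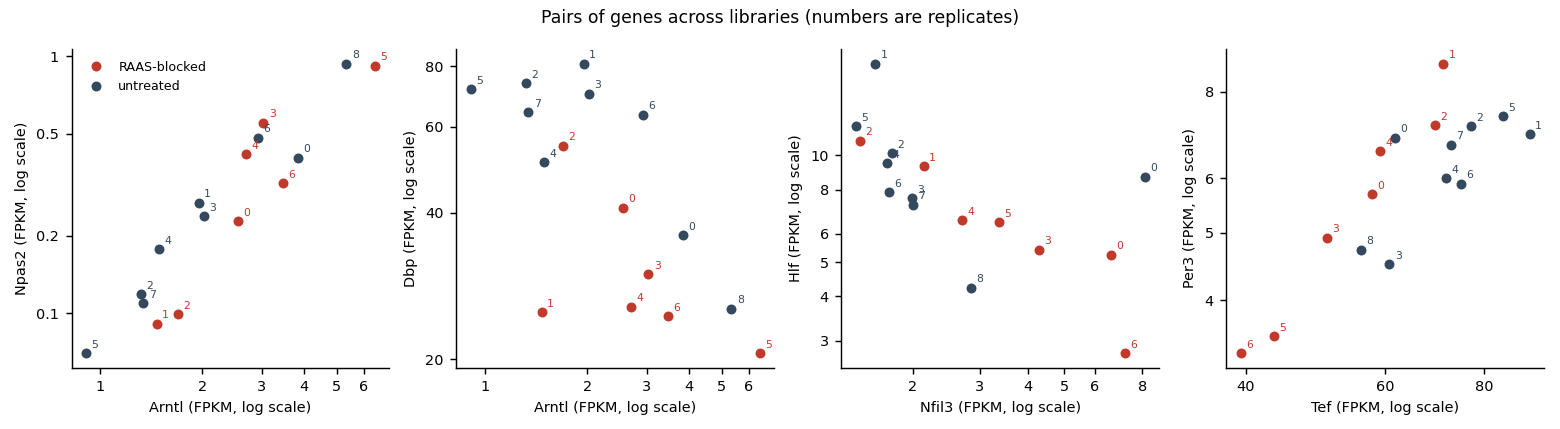
Pairs of genes in FPKM on log axes, one point per library, red for RAAS-blocked and dark for untreated, numbered by replicate. Arntl and Npas2 rise together, Dbp tends to be lower where Arntl is higher, with RAAS-blocked replicate 1 apart (1.47 FPKM Arntl, 24.9 FPKM Dbp), Hlf lower where Nfil3 is higher, with untreated replicate 0 apart, and Per3 higher where Tef is higher.

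The repressors of the loop, which were not used to choose the genes, were set against them within each group, as 160 pairs (8 genes, 10 repressors, 2 groups) adjusted together. The values of the 8 genes and earlier results of these data were known when this comparison was chosen, which its p-values do not take into account. Tef with Per3 was the 1 pair to pass. In RAAS-blocked libraries its Pearson r was 0.98 (exact permutation p = 0.000198, two-sided, n = 7, the smallest p that 7 libraries allow, adjusted p = 0.0317) and its Spearman rho 1 (exact permutation p = 0.000397, adjusted p = 0.0635). Leaving out the pair of libraries farthest from the Per3 median gave an r of 0.95, and quantile normalization also gave 0.95 and ended the call (adjusted exact permutation p = 0.127). Without any 1 of the 7 libraries r was 0.98 to 0.99, and the adjusted exact permutation p was 0.111 or above, as 6 libraries allow few pairings. In untreated libraries the r was 0.74 (exact permutation p = 0.0245, n = 9, adjusted p = 0.230), the rho was 0.78 and the r was 0.33 without the 2 farthest. The difference between the groups was not tested. Per3 itself averaged 5.72 FPKM in RAAS-blocked and 6.24 FPKM in untreated libraries, with a log2 difference of -0.15 ± 0.16 (SE).

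Dbp had a positive r with 9 of 10 repressors in RAAS-blocked and with 8 of 10 in untreated libraries. Nr1d2, Nr1d1, Bhlhe41 and Gm129 were among those positive in both groups, and none of these pairs passed the adjustment. With Nr1d2, a nuclear receptor that represses through ROREs, its r was 0.58 in RAAS-blocked (adjusted exact permutation p = 0.493) and 0.90 in untreated libraries (adjusted exact permutation p = 0.105). With Nr1d1, its close relative, the r was 0.67 and 0.81, and with Bhlhe41, a repressor at E-boxes, 0.80 and 0.81 (RAAS-blocked and untreated). Dbp with Gm129 had an r of 0.82 in RAAS-blocked and 0.51 in untreated libraries. Without the 2 farthest libraries r in RAAS-blocked was 0.97 with Nr1d2, 0.69 with Nr1d1, 0.83 with Bhlhe41 and 0.74 with Gm129. In untreated libraries it was then 0.54, 0.73, 0.57 and 0.11, in the same order.

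Arntl had a negative r with 9 of 10 repressors in RAAS-blocked and with 7 of 10 in untreated libraries. With Per3 its r was -0.87 in RAAS-blocked (adjusted exact permutation p = 0.148) and -0.53 in untreated libraries, and with Nr1d2 it was -0.52 in RAAS-blocked and -0.87 in untreated libraries (adjusted exact permutation p = 0.123), or -0.56 and -0.53 without the 2 farthest. Over the 160 pairs, 12 in each group had an unadjusted p under 0.05. By Spearman's rho 0 pairs passed the adjustment.

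**Figure D5:**
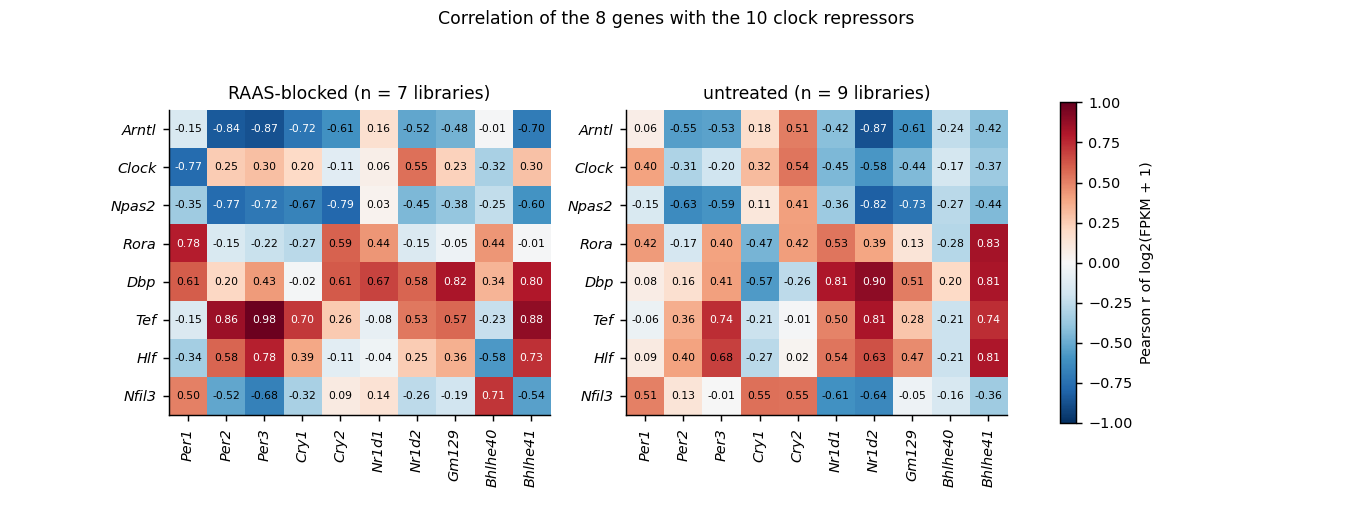
Pearson r of log2(FPKM + 1) of the 8 genes (rows) with 10 clock repressors (columns) across 7 RAAS-blocked (left) and 9 untreated (right) libraries; red is positive and blue negative. Tef with Per3 (0.98 in RAAS-blocked, 0.74 in untreated) was the 1 pair past the adjusted threshold, in RAAS-blocked libraries. Bhlhe41, like Per2, Per3, Nr1d2 and Gm129, was positive with Dbp, Tef and Hlf in both groups. Without the 2 farthest libraries the untreated r of Bhlhe41 was 0.57 with Dbp, 0.21 with Tef and 0.0009 with Hlf.

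Tissue makeup was compared with the 8 genes through the mean log2 level of 9 marker lists. Of 72 pairs over 16 libraries 13 had an unadjusted permutation p under 0.05 and 0 passed the adjustment. These permutations ran across both groups, so r and p over 16 libraries also carry any difference between the groups. Hlf followed the proximal tubule level, with r = 0.67 by Pearson (two-sided permutation p = 0.00377, adjusted p = 0.0905) and a Spearman rho of 0.61 (permutation p = 0.0129), 0.59 without the 2 farthest libraries, 0.72 within RAAS-blocked and 0.77 within untreated libraries. Dbp had an r of 0.32 with that level (permutation p = 0.225, adjusted p = 0.462). Clock was lower where the proximal tubule level was higher among untreated libraries (r -0.89, rho -0.92, exact permutation p = 0.00154, adjusted p = 0.0807), and had an r of 0.17 in RAAS-blocked libraries. With the smooth muscle level over 16 libraries the r was -0.60 for Dbp and -0.68 for Rora (adjusted permutation p = 0.0905 each). It was -0.58 for Tef (adjusted permutation p = 0.200) and -0.63 for Hlf (adjusted permutation p = 0.173). Within RAAS-blocked libraries r was 0.19 for Dbp, 0.06 for Rora, 0.32 for Tef and 0.14 for Hlf. Within untreated libraries it was -0.60 for Dbp, -0.78 for Rora, -0.79 for Tef (exact permutation p = 0.00224, adjusted p = 0.0807) and -0.82 for Hlf. Without the 2 farthest untreated libraries it was -0.38 for Dbp, -0.37 for Rora, -0.65 for Tef and -0.09 for Hlf. The difference between the groups was not tested.

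The genes whose pattern was most like each of the 8 were ranked by Pearson r over 16 log2 values centred on their group mean, among 11461 named genes tested. For Arntl they were Leo1 (0.92), Ndor1 (0.88) and Mpzl1 (0.84), and Snx19 was the most opposite (-0.80). Npas2 was closest to Arntl (0.94), then Ndor1 (0.86) and Leo1 (0.85), and opposite to Akap10 (-0.78). Clock was closest to Arglu1 (0.85), Klhl11 (0.84) and Dnm1l (0.83), with Eif3k opposite (-0.87). Rora was closest to Btrc (0.88), which encodes an F-box protein that marks Per proteins for destruction, then to Zc3h7b (0.79) and Evi5l (0.78), with Sox18 opposite (-0.83).

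Dbp was closest to Sphk2 (0.82), Bhlhe41 (0.81) and Nr1d1 (0.74), with Stx18 opposite (-0.80). Tef was closest to Per3 (0.89), Smarca2 (0.85) and Hlf (0.84), with Sharpin opposite (-0.83). Hlf was closest to Rfx3 (0.89), Adk (0.85) and Tef (0.84), with Acot9 opposite (-0.90). Nfil3 was closest to Osm (0.84), which encodes the cytokine oncostatin M, Ints5 (0.84) and Bet1l (0.84), and Zfp82 was opposite (-0.86). The ranking picks extremes out of many genes and carries no test.

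Other genes of the clock and its outputs showed no change that passed the test. Of 10 clock repressors, 10 had lower means in RAAS-blocked libraries, beside 55.3% of all genes tested. Their median log2 difference was -0.32, and 0 passed over all genes. At an unadjusted limma p under 0.05 there were 4, beside 6.13% of all genes. The log2 differences of Gm129, at -0.98 ± 0.26 (SE), and Bhlhe41, at -0.92 ± 0.23, were larger in size than that of Dbp. Of 14 tested clock components outside both arms, 5 had higher and 9 lower means, with a median of -0.05 and 0 past the adjusted threshold. Usp2, a ubiquitin-specific protease under clock control, was at 13.0 ± 5.97 FPKM (SD, n = 7) in RAAS-blocked and 19.6 ± 9.18 FPKM (SD, n = 9) in untreated libraries. Timeless had a log2 difference of 0.35 ± 0.18 (SE) and Btrc of -0.13 ± 0.07.

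Genes known as PAR bZIP or clock outputs had a median log2 difference of -0.06 over 23 tested, 8 higher and 15 lower, and 0 passed. Klf9, a Krüppel-like factor that follows both the clock and glucocorticoids, had a log2 difference of -0.30 ± 0.19 (SE). The water channel gene Aqp4 had a log2 difference of 0.58 ± 0.37 (SE) and Cys1, a cilium gene, of -0.34 ± 0.22. Of 12 glucocorticoid-responsive genes 5 had higher and 7 lower means (median -0.06, 0 past the threshold), led by the metallothionein Mt2 at 0.38 ± 0.23 and Tsc22d3 at -0.20 ± 0.13. Of 12 immediate early genes, which respond within minutes to a stimulus, 8 had higher and 4 lower means (median 0.02, 0 past the threshold), and the lowest p belonged to Ier3 at 0.21 ± 0.18, Nr4a1 at -0.56 ± 0.58 and Zfp36 at 0.24 ± 0.28.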

How the data were processed

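The authors deposited FPKM values of 25791 gene symbols in 16 libraries. Per the submitters' processing notes the tools were TopHat2 2.0.8, Cuffdiff 2.2.1, Cufflinks, CASAVA 1.8.2 and FastQC, whose roles are not stated. For these deposited FPKM values the genome build, annotation and strand setting are not stated in the sources used here, and reads of a gene and an overlapping or antisense partner may be mixed. Absolute depth is unknown. From the steps of values under 0.05 FPKM, on which 61.7% to 73.9% of ratios to untreated replicate 0 fell (within 0.05 on the log2 scale, doubling and halving included), the other libraries had 1.01 to 1.69 times its depth.

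Values were tested as log2(FPKM + 1), which understates changes of low genes, for the 13286 genes that reached 1 FPKM in 7 or more libraries. The limma model (limma 3.58.1, R 4.3.3) had group as its only term, with trend and robust variance moderation, and p-values were adjusted by Benjamini-Hochberg over all genes at 0.05. Correlations used Pearson r and Spearman rho with exact pairings of under 10 libraries or 100000 permutations of 16, and Python 3.11.15. The functions were tested on simulated data. Each library is taken as 1 mouse, which the labels do not state one by one, and p-values rest on the variation among these 16 libraries, which may be partly technical. The members, lists and tests were chosen with earlier results of these data known. Gene names come from a rule: the 8 members and the 10 repressors, the 3 genes of each other list with the lowest p, and the 3 most and 1 least similar genes of each member, leaving out predicted, unnamed and small RNA symbols. Markers that describe the libraries are named outside it. Same-numbered libraries of the groups were not paired: the correlation of their deviations ran from -0.28 to 0.43 over 7 numbers. Promoter sequences are RefSeq's (GRCm38.p6).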

Additional observations from a re-analysis of the deposited data

Results flagged for a closer look

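In 16 sets of values (8 genes in each group) 4 libraries lay far from the rest of their group, judged by the gap to the next value as a share of the group's range. With normally spread values about 1 in 20 such sets would be marked with no cause. FPKM values need not be spread that way, and all 4 marks fell on the highest value of a group. The 4 can therefore not be set against that rate. Arntl in RAAS-blocked replicate 5 was at 6.46 FPKM, with the next at 3.47 FPKM. Clock in RAAS-blocked replicate 4, the library with the fewest symbols above 0, was at 20.4 FPKM, with the next at 16.2 FPKM. Npas2 in untreated replicate 8 was at 0.934 FPKM, with the next at 0.483 FPKM. Nfil3 in untreated replicate 0 was at 8.12 FPKM, with the next at 2.84 FPKM.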

How the results depend on the processing

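No setting brought a member past the threshold: 0 passed in the main fit, in each alternative and in each of the 16 fits without 1 library. The 7 tested members kept the direction of their difference under the 10 alternative fits, and in the fits without 1 library only Clock reversed, to -0.02 without RAAS-blocked replicate 4, with a range of -0.016 to 0.079. Without 1 library the Dbp difference ran from -1.03 to -0.80 (adjusted p from 0.181 to 0.844). The replicate block, on numbers that did not pair the libraries, gave 0 members and 1 gene past the threshold, and -1.02 for Dbp. The count of all genes, 2 in the main fit, was 1 with upper-quartile scaling, quantile normalization, no trend or either marker covariate, 11 with array weights, 0 by the Wilcoxon test, and 1 to 6 without 1 library each. The highest was without RAAS-blocked replicate 4, and 4 passed without untreated replicate 8.

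Tef with Per3 in RAAS-blocked libraries lost its call with quantile normalization (r = 0.95, adjusted permutation p = 0.127, 0 pairs past the threshold). Without 1 of the 7 libraries r stayed between 0.98 and 0.99, with an adjusted permutation p of 0.111 to 0.158 and 0 pairs past the threshold. Over all 16 fits without 1 library the count of pairs ran from 0 to 1. Without the 2 farthest libraries r was 0.95 (0 pairs past the threshold). Fewer libraries raise the lowest p that permutations can give. Of pairs with marker lists 0 passed, and 0 to 1 without 1 library: Rora with smooth muscle passed without RAAS-blocked replicate 4. The pseudocounts 0.1 and 0.5 changed no call of the group fits, and 0.1, the one run for correlations, left both counts of pairs as they were.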
